A study of Mus musculus with 3 samples.

Results

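The cyclic AMP pathway genes described here are the adenylyl cyclases, the phosphodiesterases, the subunits of protein kinase A, the kinase's anchoring proteins, the exchange factors activated by cyclic AMP, and the CREB-related transcription factors with their CRTC coactivators. They were chosen by a rule on gene symbols that uses no level, although earlier results of these data were known at that time. They made up 68 of the 24384 named genes in the count table: 10 cyclase genes (Adcy), 26 genes with a Pde symbol, 6 kinase subunit genes (Prkar and Prkac), 2 exchange factor genes (Rapgef3 and Rapgef4), 16 anchor genes (Akap) and 8 genes of factors and coactivators (Atf1, Creb1, Creb3, Creb5, Crem and Crtc1, Crtc2 and Crtc3). Poly(A) RNA was measured in 3 libraries of N1E-115, a mouse neuroblastoma line labelled as neuroblast, with wild-type genotype and without treatment, at day 0. All 3 libraries belong to a single group, so the data give levels and their spread and hold no comparison between conditions. Nothing in the labels says that the libraries are separate cultures. The SDs and p-values below therefore measure only how far these 3 libraries differ, which may be technical.

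Adenylyl cyclases make cyclic AMP when receptors activate the stimulatory G protein, and phosphodiesterases break it down. Cyclic AMP releases the catalytic subunits of protein kinase A from their regulatory subunits, and A-kinase anchoring proteins hold the kinase at particular places in the cell. Once freed, the kinase phosphorylates CREB-family factors, which act at cyclic AMP response elements in promoters. In N1E-115 cells, agents that raise cyclic AMP are known to drive outgrowth of neurites and neuronal differentiation.

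The libraries held 17731376, 13942014 and 15432235 counts in named genes (replicates 1, 2 and 3), and 3 counts, the limit taken for a gene without counts, were worth between 0.169 and 0.215 CPM (counts scaled to one common library total). This limit and the intervals below cover counting error only. A gene was called detected at 1 CPM or more in every library. Levels of different genes are compared per length, as RPKM (CPM per kilobase of annotated exon), except where CPM is named, and are given as mean ± SD over n = 3 libraries. In bulk RNA, fewer cells with a transcript and less transcript per cell cannot be told apart. Of 10 genes listed as markers of noradrenergic neuroblastoma, 10 were detected, with summed levels of 5718 to 6366 CPM. Markers of other cell types were low, with summed levels of 4.795 to 9.42 CPM for 6 fibroblast genes (2 detected; Col3a1 and Lum at 0), 6.46 to 6.998 CPM for 6 glial genes (2 detected), 0.389 to 0.789 CPM for 6 blood and immune genes (0 detected; Ptprc, Cd3e and Hbb-bs at 0) and 4.99 to 8.25 CPM for 4 endothelial genes (1 detected; Kdr at 0).

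Of the 68 genes, 45 (66.2%) were detected. The same threshold called 47.3% of all named genes and 54.9% of protein-coding genes detected. All 6 kinase subunit genes were detected, as were 13 of 16 anchors, 7 of 8 factors and coactivators, 13 of 26 Pde genes, 5 of 10 cyclases and 1 of 2 exchange factors. No counts in any library were found for 11 members: Adcy1, Adcy2, Adcy8, Pde6b, Pde6c, Pde6h, Rapgef4, Akap2, Akap4, Akap14 and Creb5. Of all named genes 36.7% had no counts, and of protein-coding genes 29.6%. Summed over members, the kinase subunits reached 503 ± 12.3 RPKM, against 140 ± 9.12 for the anchors, 59.1 ± 1.31 for the Pde genes, 46.4 ± 1.45 for the factors and coactivators, 29.6 ± 3.03 for the cyclases and 1.31 ± 0.28 for the exchange factors. One kinase subunit gene, Prkar1a, accounted for 41.3 ± 1.20% of the summed level of the 68 genes.

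**Figure D1:**
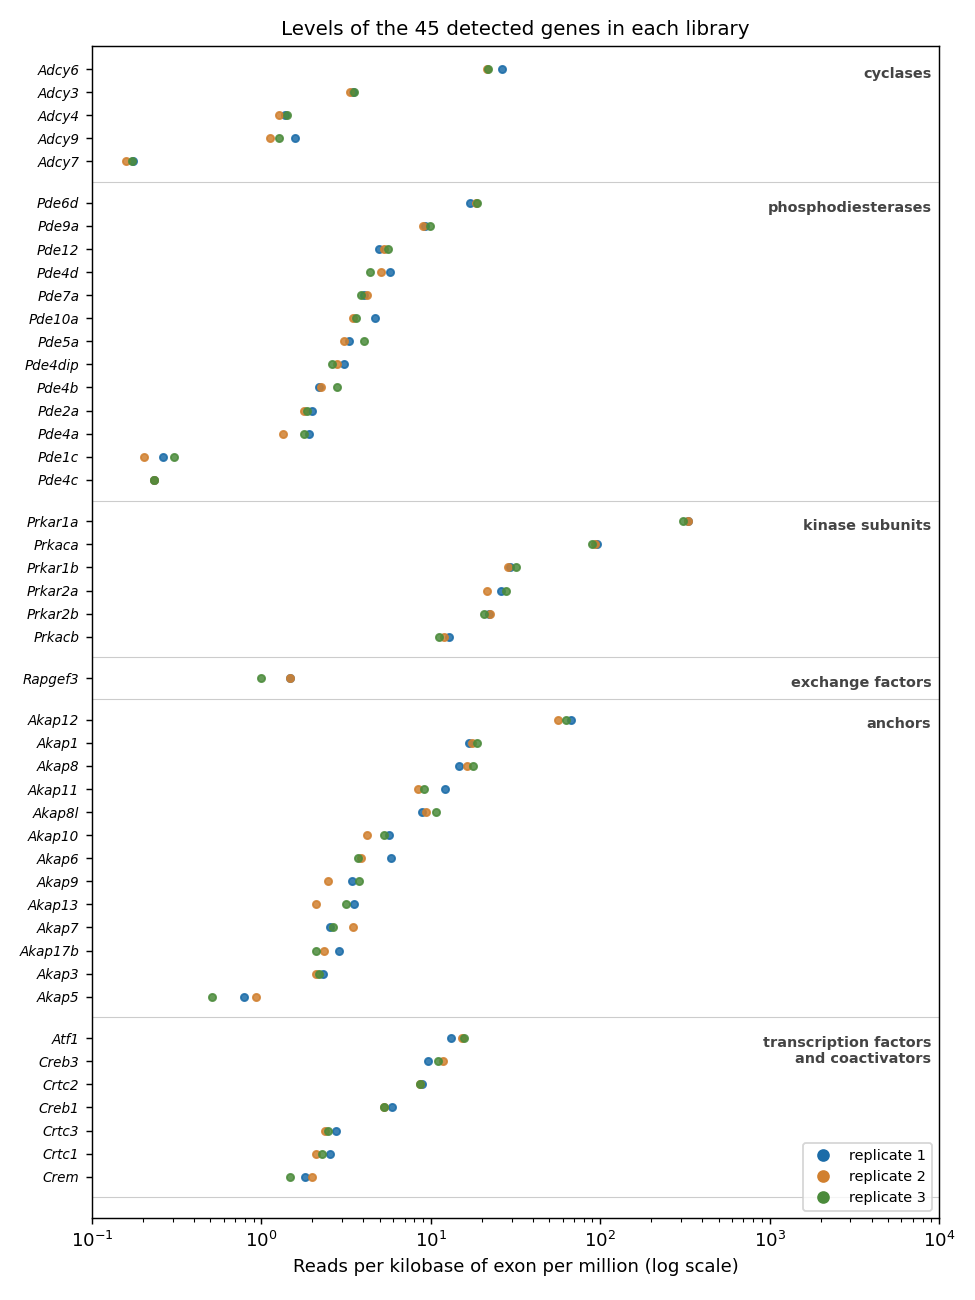
Level of each of the 45 detected genes in RPKM (x axis, log scale), grouped by role, with 1 point per library coloured by replicate. Prkar1a lies between 309 and 328 in the 3 libraries, to the right of every other gene, and the points of most genes lie close together.

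The promoters were examined for the letters of the cyclic AMP response element. RefSeq promoter windows (build GRCm38.p6, 250 bases before to 50 after an annotated start) were found for 55 of the 68 genes and searched on both strands for the palindrome TGACGTCA and for its shorter cores, TGACG and CGTCA, each of which also lies within the palindrome. The other 13 genes had no window and were not searched. They were Adcy6, Adcy8, Akap2, Akap12, Crem, Crtc2, Pde3a, Pde3b, Pde6a, Pde6c, Pde6g, Pde7a and Pde9a. The palindrome occurred in windows of 2 of the 55 genes (3.64%), Prkar1a and Creb5, against 2.03% of 27025 genes with windows. Among detected genes with windows it occurred in 1 of 39 members (2.56%) and in 3.91% of all genes. A core occurred in windows of 19 of the 55 genes (34.5%), against 23.0% of all genes with windows. Among detected genes with windows the shares were 14 of 39 members (35.9%) and 36.8% of all genes. These shares per gene are not matched for window number. The 55 members had 99 windows and the 27025 genes 32851, and among detected genes 39 members had 72 and 8838 genes 11398. Per window, the palindrome occurred in 3.03% for members against 1.79% for all, and among detected genes in 2.78% against 3.26%. Windows of a gene can overlap and share a match. These are matches of letters in a window, and binding was not measured.

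The windows with the palindrome upstream of the start are printed in full because they belong to the member with the highest level and to one without counts. Positions are those of the motif's first base, counted from the start as 1, with -1 just before it. Capitals mark the palindrome, which begins at -49 in Prkar1a (chr11:109650699-109650998, plus strand) and at -45 in Creb5 (chr6:53287053-53287352, plus strand).
Prkar1a: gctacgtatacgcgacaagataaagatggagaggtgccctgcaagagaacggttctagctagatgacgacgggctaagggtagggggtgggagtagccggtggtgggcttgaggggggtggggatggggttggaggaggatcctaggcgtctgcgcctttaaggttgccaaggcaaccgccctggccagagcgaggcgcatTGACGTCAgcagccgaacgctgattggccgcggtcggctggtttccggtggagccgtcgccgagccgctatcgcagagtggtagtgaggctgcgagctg
Creb5: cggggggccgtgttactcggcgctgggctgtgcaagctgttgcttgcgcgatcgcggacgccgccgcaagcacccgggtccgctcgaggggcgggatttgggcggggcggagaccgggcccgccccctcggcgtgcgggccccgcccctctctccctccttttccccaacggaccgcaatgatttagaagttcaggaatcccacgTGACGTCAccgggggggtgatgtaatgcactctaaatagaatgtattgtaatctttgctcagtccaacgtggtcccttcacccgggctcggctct

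Prkar1a has 6 annotated windows in all, and this start lies inside the gene as GENCODE annotates it. The printed Prkar1a window also holds a TGACG core, left in lower case, at -187. Of the 6 kinase subunit genes, 5 had a core in at least 1 window, Prkar2b being the exception. The share over all detected genes with windows was 36.8%, where 8838 genes had 11398 windows. A gene with more windows has more room for a match: Prkar1b had 5 windows, Prkacb 3, Prkaca and Prkar2b 2 each and Prkar2a 1. With 6 genes of unlike window number, the count is not set against that share. The cores in Prkaca, Prkacb, Prkar1b and Prkar2a are shown in capitals with 20 bases on either side. Each is read 5′ to 3′ on the gene's own strand.
Prkaca, core at -120 (chr8:83972838-83972882, plus strand): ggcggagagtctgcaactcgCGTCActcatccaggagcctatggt
Prkaca, core at -6 (chr8:83972952-83972996, plus strand): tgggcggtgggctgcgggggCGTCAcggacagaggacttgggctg
Prkacb, core at -102 (chr3:146813024-146813068, minus strand): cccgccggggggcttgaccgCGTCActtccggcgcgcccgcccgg
Prkar1b, core at -49 (chr5:139150026-139150070, minus strand): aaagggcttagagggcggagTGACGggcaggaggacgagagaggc
Prkar2a, core at -4 (chr9:108692119-108692163, plus strand): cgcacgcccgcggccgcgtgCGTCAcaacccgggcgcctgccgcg

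The regulatory subunits of protein kinase A were led by Prkar1a, which encodes the widely expressed type I alpha subunit (chromosome 11, 109649405 to 109669656, plus strand; mm10). It had 25118, 19773 and 20628 counts in replicates 1, 2 and 3, or 328, 328 and 309 RPKM. Its mean of 322 ± 10.8 RPKM ranked 114th among 11486 detected genes with a known length, and its CPM, not scaled for length, ranked 42nd among all named genes. The 3 libraries differed by little, with a coefficient of variation of 3.35%, against a median of 9.80% for detected genes. That median covers genes of all counts, and counting error adds more to it at low counts, so it is not matched to Prkar1a. Prkar1b, the neuronal type I beta subunit, had 1985, 1525 and 1862 counts (29.9 ± 1.55 RPKM). Prkar1a exceeded it by 10.8 ± 0.89-fold per kilobase. Per kilobase the type II subunits were lower still. Prkar2a, the widely expressed alpha form, had 2942, 1901 and 2732 counts (25.0 ± 3.30 RPKM). Prkar2b, the beta form of neurons and fat, had 1424, 1145 and 1156 counts (21.7 ± 1.03 RPKM). The ranges of Prkar2a and Prkar2b overlapped, whereas the lowest library of Prkar1b (28.7 RPKM) stood just above the highest of Prkar2a (27.8 RPKM). In CPM, without length scaling, Prkar2a stood above Prkar1b, at 160 ± 21.0 against 114 ± 5.91. With the longest transcript as length, Prkar2a stood above Prkar2b without overlap.

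Prkar1a made up 80.8 ± 1.22% of the summed regulatory subunit level, Prkar1b 7.52 ± 0.54%, Prkar2a 6.29 ± 0.90% and Prkar2b 5.44 ± 0.17%. Type I subunits therefore exceeded type II subunits by 2.89, 3.02 and 2.82 in log2(RPKM + 0.1) in the 3 libraries, a mean of 2.91 ± 0.10 (higher in 3 of 3 libraries). The exact two-sided sign-flip p was 0.25 for each of the 4 pair ratios in this text, and 0.25 is the smallest that 3 libraries allow. Prkar1a set this direction: Prkar1b alone stood at 0.641 ± 0.025 times the type II sum.

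Of the catalytic subunit genes, Prkaca (chromosome 8, 83972993 to 83996443, plus strand) had 4207, 3247 and 3421 counts and Prkacb (chromosome 3, 146729574 to 146812990, minus strand) 2002, 1470 and 1516. These correspond to 95.4, 93.6 and 89.1 RPKM for Prkaca and to 12.9, 12.02 and 11.2 RPKM for Prkacb. The genes did not overlap in any library. The summed counts gave a ratio per kilobase of 7.69 (95% exact interval 7.43 to 7.95), and the log2 ratio was 2.94 ± 0.05, higher in 3 of 3 libraries. With the longest annotated transcript as length in place of all exons (4347 against 8772 nt for Prkacb), the log2 ratio was 2.06, and without any length scaling it was 1.13. Prkaca accounted for 88.5 ± 0.37% of the catalytic subunit level. Regulatory subunits exceeded catalytic subunits by 3.81 ± 0.069-fold in summed level, and the regulatory subunits other than Prkar1a stood at 0.733 ± 0.057 times the catalytic sum.

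**Figure D2:**
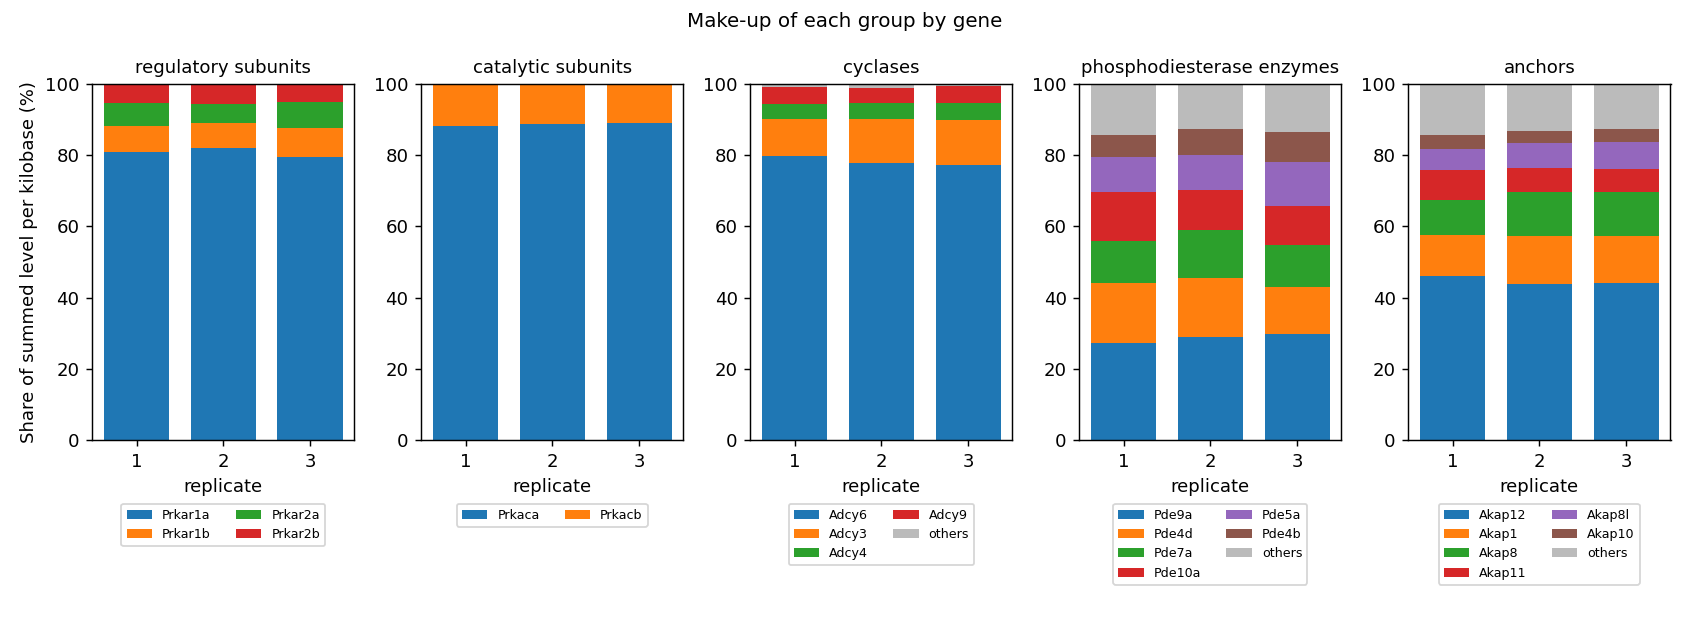
Share of the summed level per kilobase (y axis, %) taken by each gene within 5 groups, with 1 stacked bar per replicate; genes outside the 6 highest of a group, or under 1% in every library, are joined as others. Prkar1a, Prkaca and Adcy6 each take most of their group, whereas the highest phosphodiesterase enzyme, Pde9a, takes 28.7 ± 1.32% of its group on this scale.

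Among the adenylyl cyclases, Adcy6, a membrane enzyme inhibited by calcium and by the inhibitory G protein, was the main gene (chromosome 15, 98589973 to 98610076, minus strand). It had 3173, 2026 and 2289 counts, or 26.4, 21.4 and 21.9 RPKM, and 78.3 ± 1.24% of the cyclase level. Adcy3, known from olfactory neurons and primary cilia, came next with 384, 291 and 338 counts (3.44 ± 0.086 RPKM), 6.75 ± 0.75-fold below Adcy6. Its level is uncertain, since 22.1% of its exon bases overlap Cenpo on the opposite strand and the strand setting of the counting is not known. Adcy4, a form stimulated by G protein beta-gamma subunits (1.36 ± 0.073 RPKM), and Adcy9, a broadly expressed form little sensitive to forskolin (1.33 ± 0.23 RPKM), followed with overlapping ranges. Adcy7, also of the beta-gamma group, was just above the threshold in each library (1.18, 1.08 and 1.17 CPM). Adcy5, the closest relative of Adcy6, passed it in replicate 2 but not in replicates 1 and 3, with 17, 20 and 5 counts, or 0.959, 1.43 and 0.324 CPM. The calcium-stimulated neuronal cyclases Adcy1 and Adcy8 and the beta-gamma-stimulated Adcy2 had no counts, and the soluble cyclase Adcy10 had 1 count in replicate 3.

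The phosphodiesterases were spread over more genes. Of the 21 genes that encode catalytic subunits acting on cyclic nucleotides, 10 were detected, and the highest, Pde9a (chromosome 17, 31386210 to 31476310, plus strand), acts on cyclic GMP rather than cyclic AMP. It had 582, 443 and 540 counts (9.38 ± 0.46 RPKM). Pde4d, of the cyclic AMP-specific family that rolipram inhibits (chromosome 13, 108449948 to 109953461, plus strand), had 1222, 850 and 814 counts (5.07 ± 0.67 RPKM). Pde9a and Pde4d did not overlap on the scale of all exons, but their ranges overlapped when the longest transcript was used (means of 15.9 and 14.5). In CPM, without length scaling, the order was reversed, with 22.6 ± 2.54% of the enzyme sum for Pde4d, 18.6 ± 2.04% for Pde10a, 12.7 ± 1.91% for Pde5a and 12.3 ± 0.80% for Pde9a, which has 3538 nt of exon against 12006 nt for Pde4d. Pde7a, also specific for cyclic AMP (4.05 ± 0.14 RPKM), Pde10a, a dual-specificity enzyme known from the striatum (3.92 ± 0.66), and Pde5a, the cyclic GMP-specific target of sildenafil (3.47 ± 0.51), could not be ordered, since each overlapped the next, and Pde10a also overlapped Pde4d.

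Below them on the scale of all exons stood Pde4b (410, 331 and 454 counts, 2.41 ± 0.33 RPKM). Pde2a, an enzyme stimulated by cyclic GMP (217, 153 and 177 counts, 1.88 ± 0.10), and Pde4a (261, 143 and 212 counts, 1.69 ± 0.31) followed. With the longest transcript as length, Pde4b (mean 5.91) overlapped Pde10a (6.48). On that length both stood above Pde7a (4.98) and Pde5a (4.49) without overlap. Pde1c, a calmodulin-dependent enzyme, had 93, 57 and 94 counts, and Pde4c, of the rolipram-sensitive family, had 23, 18 and 20. They were the lowest detected enzymes per kilobase, at 0.256 ± 0.050 and 0.232 ± 0.00058 RPKM. At such counts, counting error exceeds the SD of Pde4c, so that SD does not measure precision. The level of Pde2a is uncertain, because 64.3% of its exon bases overlap an annotated locus on the same strand, Gm45837. By substrate, enzymes specific for cyclic AMP (Pde4, Pde7 and Pde8 families) held 41.3 ± 1.51% of the summed enzyme level, those specific for cyclic GMP (Pde5, Pde6 and Pde9) 39.5 ± 2.70%, and those acting on both 19.2 ± 1.83%. With the longest transcript as length these shares were 48.4, 34.6 and 17.0%.

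The phosphodiesterase genes that were not detected included Pde3a, a cyclic GMP-inhibited enzyme of heart and platelets, with 53, 20 and 8 counts. Replicate 1 was the highest and replicate 3 the lowest for it, and only replicate 3 was under 1 CPM (0.518). Pde1a, Pde1b, Pde3b, Pde7b, Pde8a, Pde8b and Pde11a held between 1 and 22 counts over the 3 libraries. The photoreceptor genes Pde6b, Pde6c and Pde6h had none, Pde6a had 17 and Pde6g 5. In contrast, Pde6d was abundant (662, 562 and 634 counts; 18.2 ± 0.91 RPKM), but its product carries prenylated proteins and is no phosphodiesterase. Pde12, which degrades oligoadenylates and poly(A) tails (5.28 ± 0.35 RPKM), and Pde4dip, a Golgi and centrosome protein that binds Pde4 enzymes (2.82 ± 0.23 RPKM), likewise carry the symbol without acting on cyclic nucleotides.

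Of the exchange factors for Rap that cyclic AMP activates directly, Rapgef3 (Epac1) had 165, 130 and 97 counts (1.31 ± 0.28 RPKM), whereas Rapgef4 (Epac2), the form usual in neurons and endocrine cells, had none. Against the limit of 3 counts per library, Rapgef3 was at least 58.0-, 45.7- and 34.1-fold higher per kilobase in replicates 1, 2 and 3.

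The anchors were detected in 13 of 16 cases and led by Akap12, a scaffold under the plasma membrane also known as gravin (chromosome 10, 4266380 to 4359470, plus strand). It had 7756, 5098 and 6251 counts, or 67.7, 56.6 and 62.7 RPKM, and 44.6 ± 1.25% of the anchor level. Akap12 exceeded Akap1, which anchors the kinase at mitochondria, by 3.53 ± 0.42-fold. Akap1 had 1313, 1069 and 1269 counts (17.7 ± 0.95 RPKM). The nuclear anchor Akap8 (2257, 1966 and 2385 counts; 16.3 ± 1.57 RPKM) overlapped Akap1 on this scale, and stood above it with the longest transcript as length. Its relative Akap8l was at 9.66 ± 0.94 RPKM, overlapping Akap11, an anchor that also binds glycogen synthase kinase (9.88 ± 1.94).

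The remaining anchors were lower. Akap10, also found at mitochondria, was at 5.05 ± 0.78 RPKM, Akap6, of the nuclear envelope of muscle and of neurons, at 4.46 ± 1.18, Akap9, of the Golgi and centrosome, at 3.21 ± 0.66, and Akap13, a large scaffold, at 2.92 ± 0.74. Akap7, a small membrane anchor (2.89 ± 0.52), Akap17b (2.43 ± 0.40) and Akap3, known from sperm (2.21 ± 0.12), followed, and each gene from Akap10 to Akap3 overlapped the next in order. Akap5, the postsynaptic anchor of neurons, had 95, 88 and 54 counts (0.741 ± 0.21 RPKM). The sperm anchors Akap4 and Akap14 had no counts. Akap2 had none either, but 84.4% of its exon bases lie within Pakap, a longer locus on the same strand, which also had no counts.

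Among the transcription factors that bind cyclic AMP response elements, Atf1 (chromosome 15, 100227819 to 100261244, plus strand) had 719, 651 and 737 counts, Creb1 (chromosome 1, 64532645 to 64604548, plus strand) 1437, 1010 and 1130, and Crem, whose locus also encodes the repressor ICER, 188, 164 and 135. Per kilobase the order was Atf1 (14.7 ± 1.27 RPKM), Creb1 (5.50 ± 0.35) and Crem (1.76 ± 0.26), and these did not overlap. The log2 ratio of Creb1 to Atf1 was -1.15, -1.52 and -1.53, a mean of -1.40 ± 0.21 (lower in 3 of 3 libraries). The summed counts gave a ratio per kilobase of 0.378 (95% exact interval 0.358 to 0.399). This direction depends on length: Creb1 is annotated with 13742 nt of exon against 3060 nt for Atf1, and in CPM, without length scaling, Creb1 was higher, by 0.75 in log2. Creb3, which is anchored in the endoplasmic reticulum and released by cleavage rather than by the kinase, was at 10.8 ± 1.16 RPKM, with 20.8% of its exon bases overlapping Gba2 and Tln1 on the opposite strand, and Creb5 had no counts.

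All 3 coactivators were detected. Crtc2 (chromosome 3, 90254163 to 90264125, plus strand), which salt-inducible kinases hold in the cytoplasm, had 647, 495 and 547 counts (8.75 ± 0.14 RPKM) and 64.4 ± 1.66% of the coactivator level. It exceeded Crtc3 (2.54 ± 0.20 RPKM) by 3.45 ± 0.22-fold per kilobase. The size of this lead depends on length, since Crtc2 has 4094 nt of exon against 9850 nt for Crtc3. In CPM, without length scaling, the shares were 41.4 ± 1.76% for Crtc2, 29.7 ± 1.18% for Crtc1 and 28.9 ± 0.61% for Crtc3. Crtc1, the form best known from the brain, was at 2.31 ± 0.22 RPKM and overlapped Crtc3, although Crtc3 stood above it without overlap when the longest transcript was used.

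Genes on either side of these enzymes were taken from lists of known pathway genes. Of 7 G protein genes coupled to cyclases, 5 were detected. Gnas, the stimulatory alpha subunit, had 25482, 21266 and 21832 counts (130 ± 5.23 RPKM), and the inhibitory subunits Gnai3 and Gnai2 were at 68.7 ± 6.66 and 55.1 ± 5.08 RPKM, whereas Gnai1 had no counts. Of 33 receptors that raise cyclic AMP, 11 were detected (median of the list 0.0667 RPKM), and 11 had no counts, among them Adora2b and the beta-adrenergic receptor Adrb1. The 3 with the highest CPM were Ptgir, the prostacyclin receptor, at 35.1 ± 0.50 RPKM, Adora2a, an adenosine receptor, at 27.5 ± 3.62, and Adcyap1r1, the receptor of the neuropeptide PACAP, at 26.0 ± 2.47. Of 24 receptors that lower cyclic AMP, 7 were detected (list median 0.0287 RPKM) and 11 had no counts, among them Adra2c and Drd2. Cnr1, Chrm4 and Adora1 had the highest CPM of this list. Cnr1, the cannabinoid receptor, was at 30.4 ± 3.62 RPKM, the muscarinic receptor Chrm4 at 19.9 ± 3.14 and the adenosine receptor Adora1 at 4.07 ± 1.49. The median over all named genes with a known length was 0.227 RPKM.

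**Figure D3:**
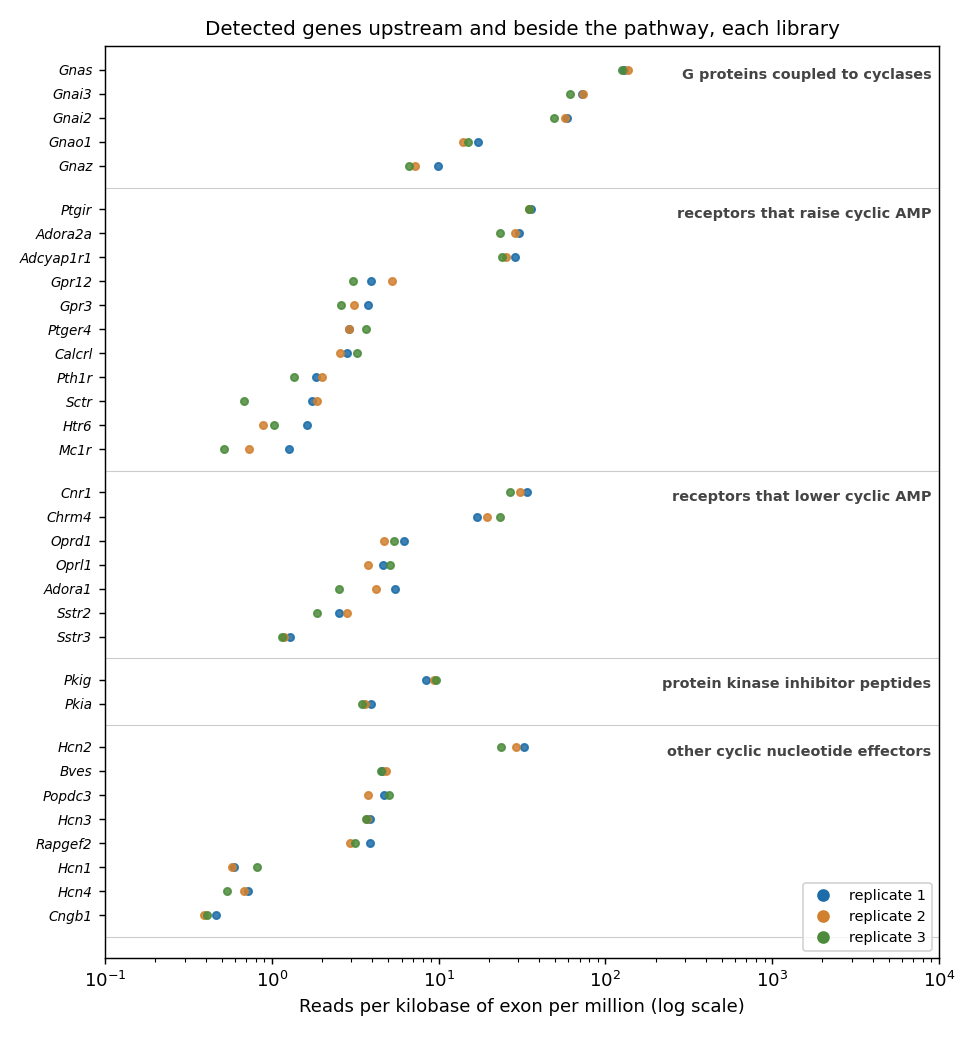
Level in RPKM (x axis, log scale) of the detected genes of 5 lists of G proteins, receptors, kinase inhibitors and other effectors, with 1 point per library coloured by replicate. Gnas lies to the right of the other genes shown, between 126 and 136, and Ptgir, Adora2a, Adcyap1r1, Cnr1 and Hcn2 are the receptors and channels furthest to the right.

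Of the 3 peptides that inhibit the catalytic subunits of the kinase, Pkig (9.13 ± 0.65 RPKM) and Pkia (3.69 ± 0.24) were detected and Pkib had no counts. Other effectors of cyclic nucleotides were detected in 8 of 14 cases. Hcn2, Rapgef2 and Bves had the highest CPM of this list. Hcn2, a channel opened by hyperpolarization and tuned by cyclic AMP, was at 28.3 ± 4.49 RPKM. Bves, a cyclic AMP-binding membrane protein, was at 4.65 ± 0.15 RPKM and Rapgef2 at 3.32 ± 0.50. The olfactory channel genes Cnga2 and Cnga4 had no counts. Of 13 partners and relatives of CREB, 12 were detected, with Atf4 (235 ± 19.3 RPKM), Atf2 (18.2 ± 1.48) and the coactivator Ep300 (8.60 ± 1.46) having the highest CPM. Of 22 genes known from other systems as CREB targets, 15 were detected. Scg2 (293 ± 3.43 RPKM), Vgf (235 ± 17.3) and Cited2 (50.6 ± 2.28) had the highest CPM, and 5 genes, Sst and Pck1 among them, had no counts. No level here shows whether CREB acts on a gene in these cells.

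Of the 45 members that passed the filter on low counts, 0 were called as varying between libraries beyond the spread usual at their count (negative binomial deviance test of edgeR, Benjamini-Hochberg adjusted p under 0.05), against 0.643% of 11821 genes tested. With DESeq2 size factors 0 were called as well. At an unadjusted p under 0.05 there were 4 members, all of them anchors, against 5.9% of all genes tested. Akap13 had 1305, 609 and 1014 counts (edgeR, adjusted p = 0.202) and Akap6 had 1533, 797 and 848 counts (edgeR, adjusted p = 0.339). Akap9 had 1293, 737 and 1234 counts (edgeR, adjusted p = 0.545) and Akap11 had 2360, 1291 and 1558 counts (edgeR, adjusted p = 0.814). Replicate 2 had the lowest count of each of the 4 genes. Scaled for depth, Akap13, Akap9 and Akap11 were lowest in replicate 2, at -0.68, -0.54 and -0.34 in log2 against the mean of the other libraries, whereas Akap6 was high in replicate 1, at 0.60, and close in replicates 2 and 3, at -0.31 and -0.35.

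These 4 anchors have long transcripts, with 20914, 14848, 21350 and 11015 nt of exon for Akap13, Akap6, Akap9 and Akap11. Long genes in general were lower in replicate 2 and higher in replicate 1. The 1577 detected genes with over 9000 nt of exon had a median log2 difference from the other libraries of -0.20 in replicate 2, where 1311 were below 0, and of 0.15 in replicate 1, against 0.03 and -0.02 for the other 9909 genes. The 13 detected members over 9000 nt had medians of -0.26 in replicate 2, with all 13 below 0, and 0.16 in replicate 1, against -0.03 and 0.01 for the 32 shorter members. In the test with a trend on exon length removed from each library, 1 of the 45 members had an unadjusted p under 0.05, against 6.16% of all genes tested. It was Akap6 (edgeR, unadjusted p = 0.0258, against 0.00622 with the trend left in, and adjusted p = 0.631). For Akap13, Akap9 and Akap11 the unadjusted p (edgeR) was 0.113, 0.139 and 0.166, against 0.0028, 0.0168 and 0.0443 with the trend left in. Whether exon length is a cause of the spread of these anchors was not tested. Among the detected members the coefficient of variation ran from 0.249 (Pde4c) to 28.3% (Akap5), with a median of 9.67%. The value of Pde4c lies below counting error at its 23, 18 and 20 counts.

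**Figure D4:**
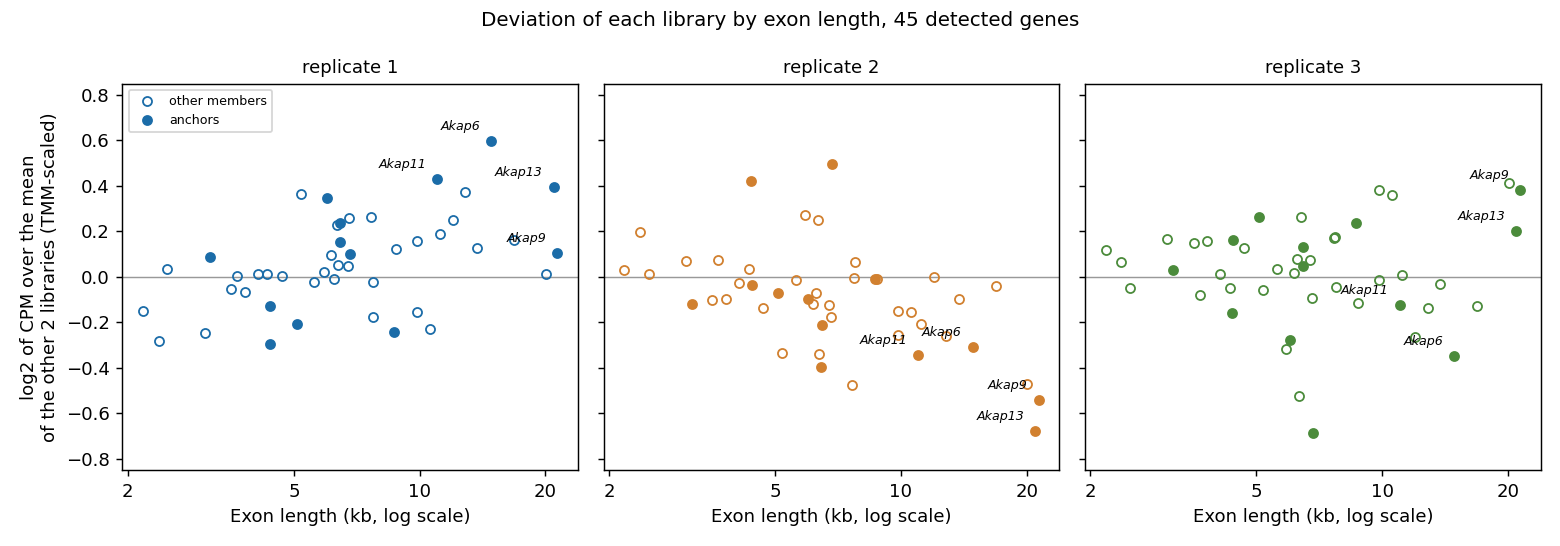
Log2 of each detected member's CPM in 1 library over the mean of the other 2 libraries (y axis, TMM-scaled) against its exon length (x axis, kb, log scale), 1 panel per replicate, with anchors as filled and other members as open points. The long anchors Akap9, Akap11, Akap13 and Akap6 lie below 0 in replicate 2 and above 0 in replicate 1.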

How the data were processed

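The authors deposited 1 table of estimated counts, with a row per gene symbol and no scaling for depth. STAR and mm10 are named in the submitters' processing notes. What counted the reads, with which annotation and strand setting, is not given in the sources used here. Counts were rounded, and 27 of 24411 rows, named by dates, were left out (0.281 to 0.306% of counts). Exon lengths and positions came from GENCODE M21 (mm10), matched for 98.5% of genes and all 68 members, and promoters from RefSeq. RPKM used the union of exons; log2 ratios used RPKM + 0.1. The variation test used edgeR 4.0.16 under R 4.3.3 (intercept-only fit, TMM, filterByExpr, trended dispersion, deviance against chi-square with 2 degrees of freedom). It was run on counts simulated with the same trended dispersion, which cannot show how it behaves for genes that depart from that trend. DESeq2 1.42.0 gave alternative size factors. Python 3.11.15 with SciPy 1.17.1 gave exact (Clopper-Pearson) intervals. The precision is limited by 3 libraries of 13942014 to 17731376 counts.

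Members and lists were chosen with earlier results of these data known. All members may be named, and of each other list the 3 detected genes with the highest CPM and up to 2 without counts; genes whose ranges over the libraries do not overlap are said to differ. The alternatives covered the detection minimum, scaling, filter, dispersion, lengths, pseudocount and leaving out each replicate.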

Additional observations from a re-analysis of the deposited data

How the results depend on the processing

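Of 57 alternative values for 9 results, 51 left the result in place, 5 moved a median level and 1 reversed a ratio. Without length scaling the log2 ratio of Creb1 to Atf1 was 0.75 instead of -1.40, as Creb1 has the longer annotated exons. Among detected members only, which removes low genes by construction, the median level was 1.42 RPKM for cyclases (0.148 with all members), 3.32 for Pde genes (0.194) and 4.43 for anchors (3.29). With the longest transcript as length it was 0.278 for Pde genes and 4.88 for anchors, since that length is shorter. Leaving out each replicate gave ranges of 0.132 to 0.167 for cyclases, 0.174 to 0.209 for Pde genes and 3.20 to 3.44 for anchors. The number of detected members ran from 42 to 46, and no member was called as varying under any of the 7 alternatives to that test, although 1 to 7 members had an unadjusted p under 0.05. Over all genes that test called 76, against 116 with a common dispersion and 36, 40 and 52 without replicate 1, 2 and 3. The log2 ratio of Rapgef4 to Rapgef3 was -3.80, and -1.20 with a pseudocount of 1; it is set by the pseudocount, and no value exists without one. No paired analysis was possible because there was a single group. Depth limits the members with few counts, such as Adcy7, which was called detected, and Adcy5 and Pde3a, which were not.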
